A study of Mus musculus with 17 samples.

Results

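Transcripts of 10 Notch pathway genes were followed across 17 mouse liver cell libraries in 5 groups: the receptors Notch1, Notch2, Notch3 and Notch4, the ligands Dll4, Jag1 and Jag2, the nuclear factor Rbpj, and the target genes Hes1 and Hey1. The genes were taken by symbol, and 10 of 10 had a row in each of the 3 deposited count tables, which hold 17140 genes for early HCC and normal liver cells and 18185 genes for Kupffer cells. Early hepatocellular carcinoma (HCC) cells came from mice given DEN (as labelled, in liver work usually the carcinogen diethylnitrosamine) and gave 3 libraries of genotype Mef2d KO and 3 of genotype WT. The product of Mef2d is a DNA-binding regulator of the MEF2 family. Normal liver cells of mice, genotype Normal, gave 3 libraries. Kupffer cells, which are liver-resident macrophages, came from DEN-induced mice and gave 4 libraries labelled KC1 and 4 labelled KC2. All groups other than normal liver cells therefore share DEN, and the labels used here give no strain, age, time after DEN, knockout driver or definition of KC1 and KC2.

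Notch signalling passes between touching cells. A ligand of the Delta-like or Jagged family on one cell binds a Notch receptor on its neighbour, proteases including gamma-secretase release the intracellular domain of the receptor, and this domain joins Rbpj on DNA to switch on genes such as Hes1 and Hey1, which encode transcriptional repressors. In the liver, Jag1 and Notch2 are known for their part in forming bile ducts, and Dll4 on sinusoidal endothelial cells for its part in giving incoming monocytes a Kupffer cell identity.

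Between 15353249 and 18637765 expected counts were summed per library, and a count of 3 stood for 0.134 to 0.249 CPM, the unit of a gene's count relative to the scaled library total, depending on the library. Replicates were tighter in the early HCC and normal liver tables, with common biological coefficients of variation of 0.0340 for KO against WT and 0.0371 for WT against normal liver, than in the Kupffer cell table, at 0.267. Whether replicates were separate animals or cultures is not in the labels, and the p-values therefore reflect library spread alone, which may be technical. Mef2d, the targeted gene, was at 61.7, 56.1 and 58.7 CPM in KO and 86.9, 86.2 and 93.4 CPM in WT cells, with no overlap (1.52-fold lower, log2 fold change -0.60 ± 0.04 SE, edgeR adjusted p = 7.17e-09), and these counts cannot tell intact from truncated transcripts. The sheet of KO and WT values has a title that names H22, AML and sh against ctrl. It differs from the sample labels, which do not name H22. The labels and column names were followed here, and the title leaves the origin of these cells uncertain. Cell labels were checked against marker genes. In KC1 the 11 Kupffer cell markers summed to between 26106 and 36331 CPM. In KC2 they summed to 2794 CPM in replicate 1 and to between 9223 and 10471 CPM in the others, while 18 liver endothelial markers summed to 44183 CPM in replicate 1 and to between 25742 and 26066 CPM in the others. KC2 replicate 1 thus stood apart, and in KC2 the endothelial sum exceeded the Kupffer cell sum in each library (18 against 11 genes, not scaled by length). In normal liver cells Alb (albumin) was at 1.97 CPM, the hepatocyte factor Hnf4a at 97.9 CPM and the biliary keratin Krt19 at 890 CPM. The 6 of 10 hepatocyte markers with a row summed to between 0.343 and 1.01 CPM in early HCC libraries, so the defining transcripts of hepatocytes were near 0 there.

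Start regions of 3 genes are printed because Dll4 and Jag1 make up most RNA of the 3 ligands followed in the groups described below. Rbpj is printed as the gene of this set with the highest level per length in early HCC cells. Each line gives 300 bases, from 250 before to 50 after a gene start, 5′ to 3′ on the strand of the gene, from RefSeq on build GRCm38.p6. Capitals mark the core of the Rbpj binding motif, TGGGAA, on either strand.
Dll4: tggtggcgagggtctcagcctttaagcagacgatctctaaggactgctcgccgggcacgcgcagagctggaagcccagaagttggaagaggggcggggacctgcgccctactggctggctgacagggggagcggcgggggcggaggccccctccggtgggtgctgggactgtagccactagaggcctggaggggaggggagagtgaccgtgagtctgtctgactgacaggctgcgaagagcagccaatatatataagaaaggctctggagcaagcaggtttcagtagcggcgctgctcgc
Jag1: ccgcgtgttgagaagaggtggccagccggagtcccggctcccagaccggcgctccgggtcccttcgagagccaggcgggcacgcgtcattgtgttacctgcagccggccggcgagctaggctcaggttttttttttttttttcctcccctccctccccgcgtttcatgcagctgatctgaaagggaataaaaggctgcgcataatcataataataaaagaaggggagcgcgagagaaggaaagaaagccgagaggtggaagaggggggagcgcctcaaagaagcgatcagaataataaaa
Rbpj: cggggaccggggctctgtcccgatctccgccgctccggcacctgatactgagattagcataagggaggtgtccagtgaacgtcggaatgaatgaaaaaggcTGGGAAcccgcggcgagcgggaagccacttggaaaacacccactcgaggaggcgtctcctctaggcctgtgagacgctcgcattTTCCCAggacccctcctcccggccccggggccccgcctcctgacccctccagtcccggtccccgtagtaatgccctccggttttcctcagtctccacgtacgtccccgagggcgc
The Dll4 region is chr2:119325534-119325833 on the + strand, the Jag1 region chr2:137116471-137116770 on the − strand and the Rbpj region chr5:53590096-53590395 on the + strand. The Rbpj region belongs to a start inside the gene, whose RefSeq span begins at 53555779. Rbpj also had a second, overlapping start region, chr5:53590236-53590535, with a TGGGAA match that begins at -205 from its own start. RefSeq start regions were matched for 8 of the 10 genes, all but Hes1 and Hey1. TGGGAA was present on either strand in 1 of these 8 genes, Rbpj, with matches that begin at -149 and -65 from the start, and in 25.6% of 32851 start regions of the same length in the genome. The longer form GTGGGAA, which contains the core, was present in none of the 8 and in 6.38% of all regions. The MEF2 motif was found in none of the 8 and in 3.19% of all regions. These matches describe letters in a window and are not evidence of binding.

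Levels across the groups are CPM scaled jointly over the 16137 genes in all 3 tables, and values set across tables are a description with no test. Notch1 (chromosome 2, 26457903 to 26516663) was at 117, 102, 106 and 110 CPM in KC1 and 197, 208, 136 and 216 CPM in KC2. It was at 87.7, 78.2 and 83.6 CPM in normal liver, 9.82, 9.69 and 8.89 CPM in WT and 5.61, 5.46 and 4.54 CPM in KO cells. No neighbouring groups in this order overlapped, but on library totals alone normal liver (99.4 CPM) lay above KC1 (83.3 CPM). Notch2 (chromosome 3, 98013527 to 98150361) was the receptor with the least variation between groups. It was at 195, 193 and 201 CPM in KO cells, above every library of the other groups, whose means ran from 108 CPM in KC1 to 131 CPM in WT and whose neighbours in order overlapped. On library totals alone those means ran from 82.6 CPM in KC1 to 154 CPM in normal liver. With that scaling WT and normal liver libraries (143 to 160 CPM) lay above KC2 (78.7 to 136 CPM).

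Notch3 (chromosome 17, 32120820 to 32166852), a receptor best known from vascular mural cells, was at 4.31, 6.38 and 6.72 CPM in WT and 2.21, 2.02 and 2.42 CPM in KO cells. Notch3 had 0 counts in normal liver, 3 counts in KC1 and 13 in KC2. KC1 overlapped both KC2 and normal liver, whereas each KC2 library held at least 1 count. Notch4 (chromosome 17, 34564268 to 34588503), a receptor known mainly from endothelium, was at 22.9, 15.0, 17.6 and 20.2 CPM in KC2 and 14.6, 11.8 and 14.9 CPM in WT. It was at 8.67, 7.76 and 8.24 CPM in normal liver and 6.34, 5.87 and 5.85 CPM in KO cells. KC1 held 1.82, 1.35, 1.05 and 1.33 CPM, and no neighbouring groups overlapped. The step from KC2 to WT depended on the scaling. With library totals alone KC2 replicate 2 lay below every WT library, so KC2 and WT overlapped.

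Dll4 (chromosome 2, 119325784 to 119335962) was at 253, 128, 122 and 173 CPM in KC2. Every other library was far lower, at 1.90, 3.17, 2.25 and 1.25 CPM in KC1, 0.883, 1.29 and 1.31 CPM in WT and 0.720, 0.405 and 0.757 CPM in KO cells, while normal liver held 2 counts in all. Jag1 (chromosome 2, 137081456 to 137116644) was highest in normal liver, at 136, 137 and 140 CPM, and lower in KO (81.8, 85.5 and 81.8 CPM) and WT cells (42.7, 40.4 and 38.3 CPM). In Kupffer cells it was at 9.42, 6.58, 5.55 and 7.04 CPM in KC2 and 0.330, 0.634, 0.805 and 0.498 CPM in KC1. Jag2 (chromosome 12, 112907819 to 112929776), the other Jagged ligand, was at 20.6, 18.6 and 21.7 CPM in normal liver and at most 2.31 CPM in any other library.

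Rbpj (chromosome 5, 53466152 to 53657362) lay in separate steps, from 651 ± 3.35 CPM (SD, n = 3) in KO and 320 ± 8.97 CPM in WT to 161 ± 2.44 CPM in normal liver. KC2 (54.3 ± 8.30 CPM, n = 4) and KC1 (37.5 ± 5.62 CPM, n = 4) overlapped. Hes1 (chromosome 16, 30064384 to 30067796) was highest in normal liver (14.7, 12.6 and 13.6 CPM), then in KC2 (9.78, 9.15, 7.88 and 7.78 CPM). KC1 (3.96 ± 0.650 CPM) and KO cells (3.50 ± 0.405 CPM) overlapped, and WT cells were lowest at 2.11 ± 0.207 CPM. On library totals alone Hes1 in KC1 (2.34 to 3.37 CPM) lay below KO (3.40 to 4.23 CPM) and overlapped WT (2.21 to 2.71 CPM). Hey1 (chromosome 3, 8663359 to 8667256) was highest in Kupffer cells, at 6.19, 15.7, 6.84 and 7.47 CPM in KC1 and 5.77, 4.86, 3.07 and 1.70 CPM in KC2. Normal liver held 0.365, 0.363 and 0.425 CPM of Hey1, KO cells 2 counts in all and WT cells 0. The gene positions are those of GENCODE M21 on GRCm38.

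**Figure D1:**
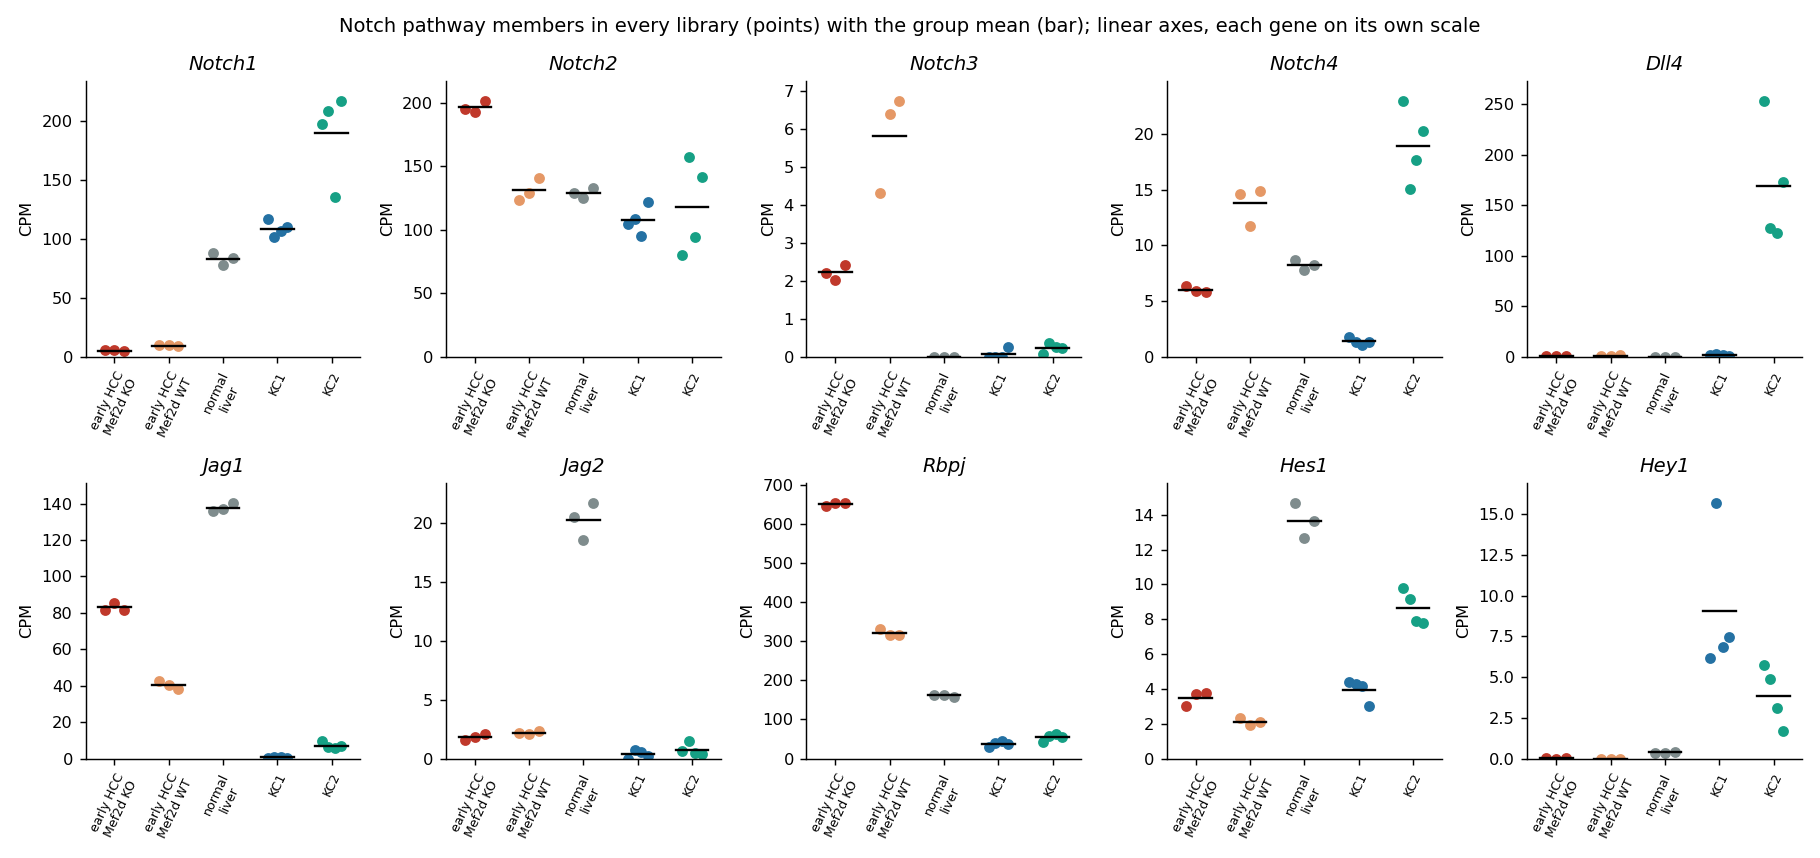
Each panel plots 1 gene in CPM on a linear axis for the 17 libraries (points), with bars for group means. Dll4 stands out in KC2 (122 to 253 CPM), Rbpj in KO cells (647 to 653 CPM) and Jag1 in normal liver (136 to 140 CPM).

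Levels of the receptors, and of the ligands, were compared with each other per length of the longest principal transcript. Rbpj reached 120 CPM per kb in KO cells, against 18.7 for Notch2 and 14.8 for Jag1 in the same libraries. Among the 4 receptors, Notch2 made up 91.5 ± 0.472% of the summed CPM per kb in KO cells, 76.6 ± 0.871% in WT and 55.1 ± 1.17% in normal liver (SD, n = 3). Notch1 made up 2.69% in KO, 6.15% in WT and 39.3% in normal liver. In KC1, Notch1 made up 52.3 ± 2.72% and Notch2 46.7 ± 2.74%, and with the union of exons as the length this order turned, to 43.0% for Notch1 and 56.0% for Notch2. In KC2, Notch1 made up 58.5 ± 4.62%, Notch2 32.7 ± 6.15% and Notch4 8.70 ± 2.35% (SD, n = 4). Among the 3 ligands, Jag1 made up 96.6% in KO, 90.6% in WT and 86.1% in normal liver, whereas Dll4 made up 76.9 ± 8.99% in KC1 and 96.8 ± 0.677% in KC2. These shares leave out Dll1, another Notch ligand. Dll1 was at 2.46 CPM in KO, 8.92 CPM in WT, 0.733 CPM in KC1 and 18.4 CPM in KC2, with 0 counts in normal liver.

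**Figure D2:**
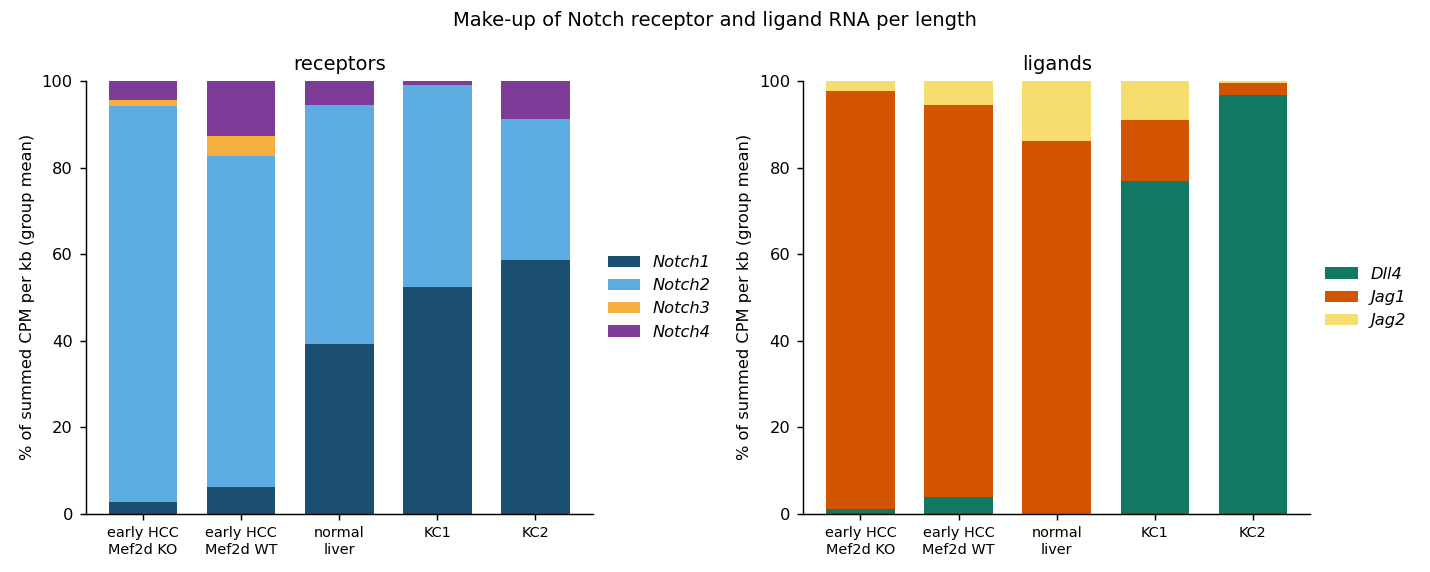
Stacked bars give each gene's mean percent of the summed CPM per kb of the 4 receptors (left) and 3 ligands (right) in the 5 groups. Notch2 leads the receptors in early HCC and normal liver cells, Jag1 leads the ligands there, and Dll4 leads the ligands in both Kupffer cell groups (76.9% and 96.8%).

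The first comparison asked whether Notch transcripts differed between early HCC cells labelled Mef2d KO and WT. Jag1, Rbpj, Notch2 and Hes1 were higher in KO cells, and Notch1, Notch3, Notch4 and Dll4 were lower, so 4 of the 9 tested genes rose and 4 fell. Of all 12093 tested genes 64.5% were called at an adjusted p under 0.05, 32.3% higher and 32.2% lower, so a call was common in this comparison. Jag1 was 2.04-fold higher (log2 fold change 1.03 ± 0.05 SE, edgeR adjusted p = 6.25e-11) and Rbpj 2.03-fold higher (1.02 ± 0.03, adjusted p = 1.28e-12). Notch2 was 1.49-fold higher and Hes1 1.65-fold higher (edgeR adjusted p = 4.91e-09 and 0.00115). Notch3 was 2.62-fold lower (log2 fold change -1.39 ± 0.17), Notch4 2.29-fold lower (-1.20 ± 0.10) and Notch1 1.82-fold lower (-0.87 ± 0.11), with edgeR adjusted p = 3.58e-06, 5.22e-08 and 2.80e-06. KO and WT libraries did not overlap for any of the 9 tested genes, against 68.6% of all tested genes. A change of at least 2-fold was rarer. Of the 9 genes 2 rose that much (Jag1 and Rbpj) and 2 fell (Notch3 and Notch4), against 3.62% and 4.04% of all tested genes. Both rises lay within 1 SE of the 2-fold cut, so the count of 2 that rose is not firm. On library totals alone the log2 fold change of Rbpj was 0.992, just under the cut, and that of Jag1 was 1.005. Without WT replicate 3 both were just under it, Jag1 at 0.986 and Rbpj at 0.999.

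Genes of low level were less firm. Dll4 was 1.85-fold lower in KO cells on 37 against 69 counts in all (log2 fold change -0.89 ± 0.31, edgeR adjusted p = 0.0182). That call was lost with DESeq2 (adjusted p = 0.120) and without KO replicate 2 (0.0919), WT replicate 2 (0.0678) or WT replicate 3 (0.0596). Jag2 did not pass the test (log2 fold change -0.28 ± 0.19, edgeR adjusted p = 0.203). Hey1, with 2 counts in KO and 0 in WT cells, did not pass the filter on low counts, and without that filter it was not called (edgeR adjusted p = 0.313). Of the 18 endothelial markers 4 were tested in this comparison, 3 were lower in KO cells and none was higher. Their summed level was 22.7 to 24.9 CPM in KO and 32.9 to 35.8 CPM in WT cells, with Erg and Flt4 at 0 in KO and Tek at 0 in WT cells. Of the cholangiocyte markers 4 of 4 tested were higher in KO cells, with sums of 1569 to 1619 CPM against 1163 to 1284 CPM, most of it Spp1. Cldn4 among them had too few counts in WT cells to pass the filter on low counts. Stellate cell or fibroblast markers had 1 lower and 0 higher of 2 tested (Des, at 5.39 against 9.19 CPM), with sums of 6.58 to 8.11 CPM in KO and 9.61 to 14.1 CPM in WT cells, Acta2 and Reln at 0 in KO and Dcn at 0 in WT. T, NK and B cell markers had 1 lower and 0 higher of 2 tested, with sums of 1.61 to 2.35 against 9.24 to 11.2 CPM. The lower one was Cd28, at 0.0842 against 8.99 CPM, most of the WT sum. Cd28 passed the filter on low counts through the WT libraries alone. Cd3d ran the other way and was not called (log2 fold change 0.54 ± 0.27, edgeR adjusted p = 0.0949). Neutrophil markers were lower for 2 of 2 tested, with sums of 0.658 to 0.908 against 1.73 to 2.57 CPM. Ly6g among them passed the filter on low counts through the WT libraries alone. The calls of Cldn4, Cd28 and Ly6g are not counted as support. Of the 11 Kupffer cell markers 5 had a row, and Id3 alone was tested and was lower. Their sums were 3.18 to 4.18 against 8.36 to 10.7 CPM, most of it Id3 (3.35 against 8.46 CPM), with Marco at 0 in WT. Of the hepatocyte markers 0 were tested. The part of these cell types in the result was not tested, and in bulk RNA fewer cells of a type and less RNA per cell cannot be told apart.

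The reads of Rbpj are uncertain as those of a single gene, since RefSeq lists 3 Rbpj pseudogenes, on chromosomes 4 and 6, and 0 of them had a row. In KO against WT cells the median log2 fold change was 0.49 over 760 tested genes of chromosome 4 and 0.093 over 534 of chromosome 6, while over 767 of chromosome 5, which holds Rbpj, it was -0.097. The part of these copies in the Rbpj result was not tested. Medians over the chromosomes of the 10 genes themselves ran from -0.097 to 0.044. Exons shared with another gene made up 7.5% and 2.9% of Notch1 exons, 6.0% of Notch3, 5.6% of Dll4 and 5.0% of Notch2, and whether counting used strand is not given in the sources used here.

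The second comparison set WT early HCC cells against normal liver cells and used the same WT libraries as the first. Notch1, Jag1, Jag2 and Hes1 were lower in early HCC cells, and Notch3, Notch4, Dll4 and Rbpj were higher, which is 4 lower and 4 higher of 9 tested genes. Calls covered 87.2% of all 12697 tested genes, 43.9% higher and 43.3% lower, so the number of calls says little about these genes and their sizes are given instead. Jag2 was 9.85-fold lower (log2 fold change -3.30 ± 0.11), Notch1 9.44-fold lower (-3.24 ± 0.07), Hes1 6.94-fold lower (-2.79 ± 0.12) and Jag1 3.66-fold lower (-1.87 ± 0.05). Their edgeR adjusted p were 1.88e-14, 2.20e-17, 5.78e-13 and 6.76e-16. Notch3 was at least 129-fold higher in early HCC cells, set against a floor of 3 counts over the normal liver group, which had 0. Dll4 had 69 against 2 counts, a ratio of 38.6 (95% interval 10.3 to 325, counting error only). Notch3 and Dll4 passed the filter on low counts through the WT libraries alone, so their calls are not counted as support. Rbpj was 1.85-fold and Notch4 1.55-fold higher (edgeR adjusted p = 7.13e-13 and 1.49e-05).

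Notch2 did not pass the test between WT and normal liver cells (log2 fold change -0.08 ± 0.04, edgeR adjusted p = 0.101) and its libraries overlapped. It passed without WT replicate 3 (adjusted p = 0.0161) or normal liver replicate 2 (0.0439), at a size of no more than -0.12. Hey1 did not pass the filter on low counts: normal liver held 25.5 counts and WT cells 0, at least 7.60-fold lower against the same floor. It was called lower in WT cells without the filter (edgeR adjusted p = 0.000129) and with DESeq2 (adjusted p = 0.000268). The libraries of the 2 groups did not overlap for 8 of the 9 tested genes, Notch3 and Dll4 among them, against 87.5% of all genes. Other cell type markers moved too. Hepatocyte markers summed to 105 to 113 CPM in normal liver cells, of which Hnf4a gave 97.9 CPM, and 4 of 4 tested were lower in early HCC cells. Cholangiocyte markers summed to 1379 to 1418 CPM in normal liver and 1163 to 1284 CPM in WT cells, with 2 higher and 3 lower of 5 tested and Epcam at 0 in normal liver. Endothelial markers summed to 72.6 to 75.7 CPM in normal liver, where Ptprb alone gave 60.0 CPM and Lyve1 and Tie1 were at 0, with 4 higher and 2 lower in WT cells of 6 tested. Stellate cell or fibroblast markers were higher in WT cells for 2 of 2 tested (Des and Col1a1), with sums of 9.61 to 14.1 CPM against 0.717 to 0.853 CPM, and Col3a1, Dcn and Pdgfrb were at 0 in normal liver. T, NK and B cell markers were higher for 2 of 2 tested (Cd28 and Cd3d), with sums of 9.24 to 11.2 against 0.270 to 0.287 CPM. Neutrophil markers were higher for 2 of 2 tested (Ly6g and S100a8), with sums of 1.73 to 2.57 against 0.135 to 0.175 CPM and Elane and S100a9 at 0 in normal liver. Of the 11 Kupffer cell markers 5 had a row, with 1 higher (Id3) and 1 lower (Nr1h3) of 3 tested. Their sums were 8.36 to 10.7 CPM in WT, most of it Id3, and 24.0 to 25.6 CPM in normal liver cells, most of it Nr1h3. Marco was at 0 in both. The tested hepatocyte markers held too few counts in WT cells to pass the filter on low counts. The tested stellate cell or fibroblast, T, NK and B cell and neutrophil markers held too few in normal liver. These were tested through the other group, so their calls are not counted as support. Single markers of other lists, such as Epcam, were tested in the same way. The part of the marker cell types in the result was not tested.

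**Figure D3:**
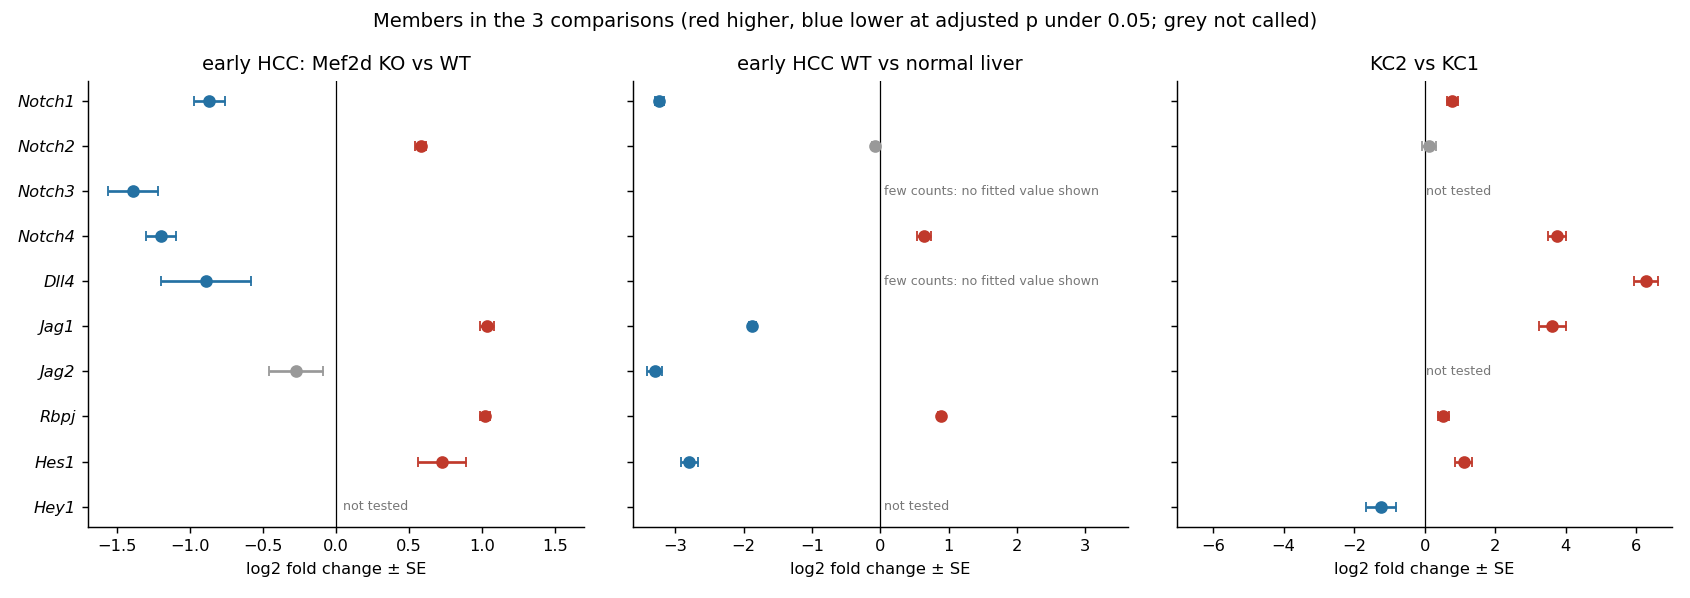
Points are log2 fold changes with SE from edgeR for the 10 genes in the 3 comparisons, red where called higher, blue where called lower and grey where not called. Genes with 3 counts or fewer in a group have no point. Jag1 and Rbpj are near 1 in KO against WT cells, and Dll4 is at 6.28 in KC2 against KC1.

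The third comparison set KC2 against KC1. Dll4, Notch4, Jag1, Hes1, Notch1 and Rbpj were higher in KC2 and Hey1 was lower, which is 6 higher and 1 lower of 8 tested genes. Of all 12774 tested genes 59.8% were called, 31.9% higher and 27.9% lower. On library totals alone, which move the median of all genes by 0.24 on the log2 scale, 65.5% of the called genes were higher (4937 higher and 2605 lower) in place of 53.4% (4078 and 3560). No direction of the 8 tested genes turned under that scaling. Dll4 was 77.7-fold higher in KC2 (log2 fold change 6.28 ± 0.34, edgeR adjusted p = 2.35e-07), and its lowest KC2 library (122 CPM) lay far above its highest KC1 library (3.17 CPM). Notch4 was 13.5-fold higher (3.75 ± 0.26, edgeR adjusted p = 9.65e-07) and Jag1 12.3-fold higher (3.62 ± 0.38, edgeR adjusted p = 1.93e-05). Jag1 passed the filter on low counts through the KC2 libraries alone, so its call, among the 6 higher, is not counted as support.

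Hes1 was 2.16-fold and Notch1 1.73-fold higher in KC2 (edgeR adjusted p = 0.00250 and 0.00117), again with no overlap between libraries. Libraries did not overlap for 6 of the 8 tested genes, Jag1 among them, against 56.8% of all genes. Rbpj was 1.44-fold higher with overlapping libraries (log2 fold change 0.52 ± 0.16, edgeR adjusted p = 0.0145), and its adjusted p was 0.0517 without KC1 replicate 1. Notch2 did not pass (log2 fold change 0.12 ± 0.21, edgeR adjusted p = 0.630). Hey1 was 2.35-fold lower in KC2 (log2 fold change -1.24 ± 0.43, edgeR adjusted p = 0.0289). Its call was lost on library totals alone (adjusted p = 0.0852) and without KC1 replicate 2 (0.110, log2 fold change -0.85), KC2 replicate 3 (0.0687) or KC2 replicate 4 (0.0584). Notch3, with 13 against 3 counts (ratio 3.62, 95% interval 0.995 to 19.8), and Jag2, with 43 against 19 counts, did not pass the filter on low counts. Neither was called without the filter (edgeR adjusted p = 0.325 and 0.471) or with DESeq2 (0.397 and 0.441).

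The markers of other cells moved with this comparison. Of the 18 endothelial markers 17 were higher in KC2 and none lower, with a median log2 fold change of 6.23 and sums of 25742 to 44183 CPM against 1336 to 1981 CPM in KC1. Cdh5, the endothelial cadherin, was the one that did not pass the test (181 CPM in KC1, 226 CPM in KC2). Of the 11 Kupffer cell markers 2 were higher and 6 lower in KC2, among them Nr1h3, Spic and Marco, with sums of 2794 to 10471 CPM against 26106 to 36331 CPM. T, NK and B cell markers were higher in 9 of 9 cases (197 to 957 against 6.92 to 10.9 CPM), neutrophil markers in 4 of 4 tested (525 to 4486 against 45.7 to 202 CPM) and cholangiocyte markers in 6 of 6 tested (256 to 982 against 8.85 to 19.8 CPM). Hepatocyte markers had 4 higher and 1 lower of 9 tested (228 to 321 against 87.5 to 167 CPM), and stellate cell markers 2 higher and 1 lower of 9 (32.4 to 53.1 against 27.4 to 59.2 CPM). In KC1 Cftr, Cldn4 and Epcam of the cholangiocyte markers were at 0. Epcam was therefore tested through KC2 alone. Which other markers passed the filter on low counts through KC2 alone was not listed, so these marker counts are a description and not support. KC2 replicate 1, with the highest endothelial sum, also had the highest Dll4, Notch4, Jag1, Hes1 and Hey1 of the KC2 libraries and the lowest Notch2 (79.8 CPM) and Rbpj (42.6 CPM), while its Notch1 (197 CPM) lay within the range of the others. Its cholangiocyte (982 CPM), T, NK and B cell (957 CPM) and hepatocyte (321 CPM) sums were the highest of the 4, and its Kupffer cell, neutrophil (525 CPM) and stellate cell (32.4 CPM) sums the lowest. Without it Dll4 was at a log2 fold change of 6.02 (edgeR adjusted p = 4.91e-09), Notch4 at 3.65, Jag1 at 3.46, Notch1 at 0.77 and Hes1 at 1.05, and the calls numbered 6 higher and 1 lower as before. The part of the other cell types in these results was not tested.

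**Figure D4:**
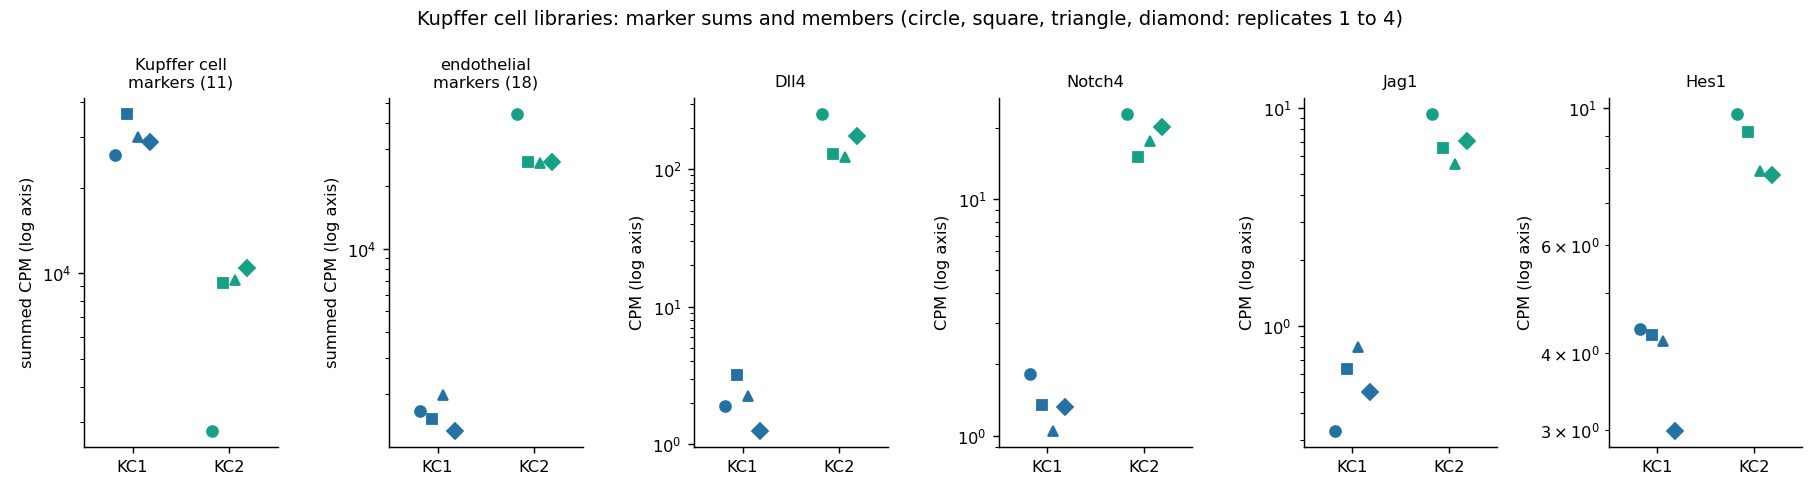
Points are the 8 Kupffer cell libraries on log axes in CPM, with marker shapes for replicates 1 to 4. Summed endothelial markers, Dll4, Notch4, Jag1 and Hes1 are higher in every KC2 than in any KC1 library, and summed Kupffer cell markers are lower.

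The wider pathway was read from a list of 60 genes by role. In KO against WT cells 16 of 50 tested were higher and 16 lower, where 32.3% and 32.2% of all tested genes were, with a median log2 fold change of 0.0049 beside -0.0035 over all genes. Corepressors, which hold Notch target genes silent, had 7 higher and 2 lower of 11, led by Tle1 at 3.26-fold higher (42.2 ± 1.14 against 12.9 ± 0.645 CPM). Higher too were Numbl, of the Numb family of Notch inhibitors (1.83-fold), Mfng, a glycosyltransferase of the Fringe family that modifies the receptor (1.82-fold), and Mib2, a ubiquitin ligase of ligand endocytosis (1.69-fold). Coactivators had 0 higher and 3 lower of 7, with the acetyltransferase Kat2b 2.47-fold lower (10.1 ± 1.71 against 25.0 ± 1.98 CPM). The ligand Dll1 was 3.64-fold lower (2.46 ± 0.161 against 8.92 ± 0.397 CPM), Dlk2, a Delta-like protein, 1.98-fold and Dtx3l, of the Deltex family, 1.77-fold lower. Each of these 8 named genes passed the edgeR test, the largest adjusted p being 0.00150 for Mfng.

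In WT early HCC against normal liver cells 20 of 54 tested pathway genes were higher and 30 lower, where 43.9% and 43.3% of all tested genes were, with a median of -0.19 beside 0.014 over all genes. Receptor proteases had 8 of 10 lower, with the gamma-secretase subunit Psen2 74.0-fold lower (0.135 ± 0.0298 against 9.71 ± 1.05 CPM). Corepressors had 3 higher and 9 lower of 12. Tle3 was 153-fold higher (72.5 ± 2.66 against 0.437 ± 0.252 CPM), and Tle4 had 2.03 against 3221 counts, a ratio of 1416 (95% interval 398 to 11876). Receptor glycosylation genes had 4 of 5 higher, among them Mfng (1.25 ± 0.228 against 0.0745 ± 0.0926 CPM). Sox9, a target gene and biliary transcription factor, was 522-fold lower (0.0950 ± 0.0377 against 44.0 ± 1.56 CPM), and Neurl1b, of ligand endocytosis, 59.3-fold lower. Nrarp, a target that encodes a feedback inhibitor of the pathway, was 34.3-fold higher (37.9 ± 1.34 against 1.03 ± 0.296 CPM), the opposite direction to Hes1. Dll1 was at 8.92 CPM against 0 counts, at least 198-fold higher. Tle4, Sox9, Psen2 and Neurl1b held 2.03, 5.6, 8 and 8.81 counts in all over the WT libraries. Dll1, Mfng and Tle3 held 0, 5 and 29 counts in all over the normal liver libraries. These counts are too few for that group to pass the filter on low counts. Such genes were tested through the other group, so their calls, included in the 20 and 30, are not counted as support.

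In KC2 against KC1 20 of 52 tested pathway genes were higher and 14 lower, where 31.9% and 27.9% of all tested genes were, with a median of 0.20 beside 0.029 over all genes, and on library totals alone 9 were lower. Other target genes had 4 higher and 0 lower of 5. Nrarp was 84.4-fold higher (9.43 ± 3.39 against 0.102 ± 0.0782 CPM) and Sox9 21.6-fold higher (12.6 ± 8.10 against 0.571 ± 0.259 CPM). Dll1 was 24.7-fold higher (18.4 ± 5.55 against 0.733 ± 0.492 CPM) and Mfng 6.26-fold higher (81.3 ± 12.4 against 12.8 ± 2.98 CPM). The corepressor Spen was 5.27-fold lower (19.0 ± 3.79 against 98.9 ± 11.5 CPM), Dtx3l 3.42-fold, Dtx2 3.14-fold and the acetyltransferase Kat2a 3.07-fold lower. Each of these 8 genes passed the edgeR test, the largest adjusted p being 0.000300 for Kat2a. Nrarp, Sox9 and Dll1 held 5, 28 and 36 counts in all over the KC1 libraries, too few for KC1 to pass the filter on low counts. They were tested through KC2, so their calls are not counted as support. Nrarp and Sox9 are among the 4 higher target genes.

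**Figure D5:**
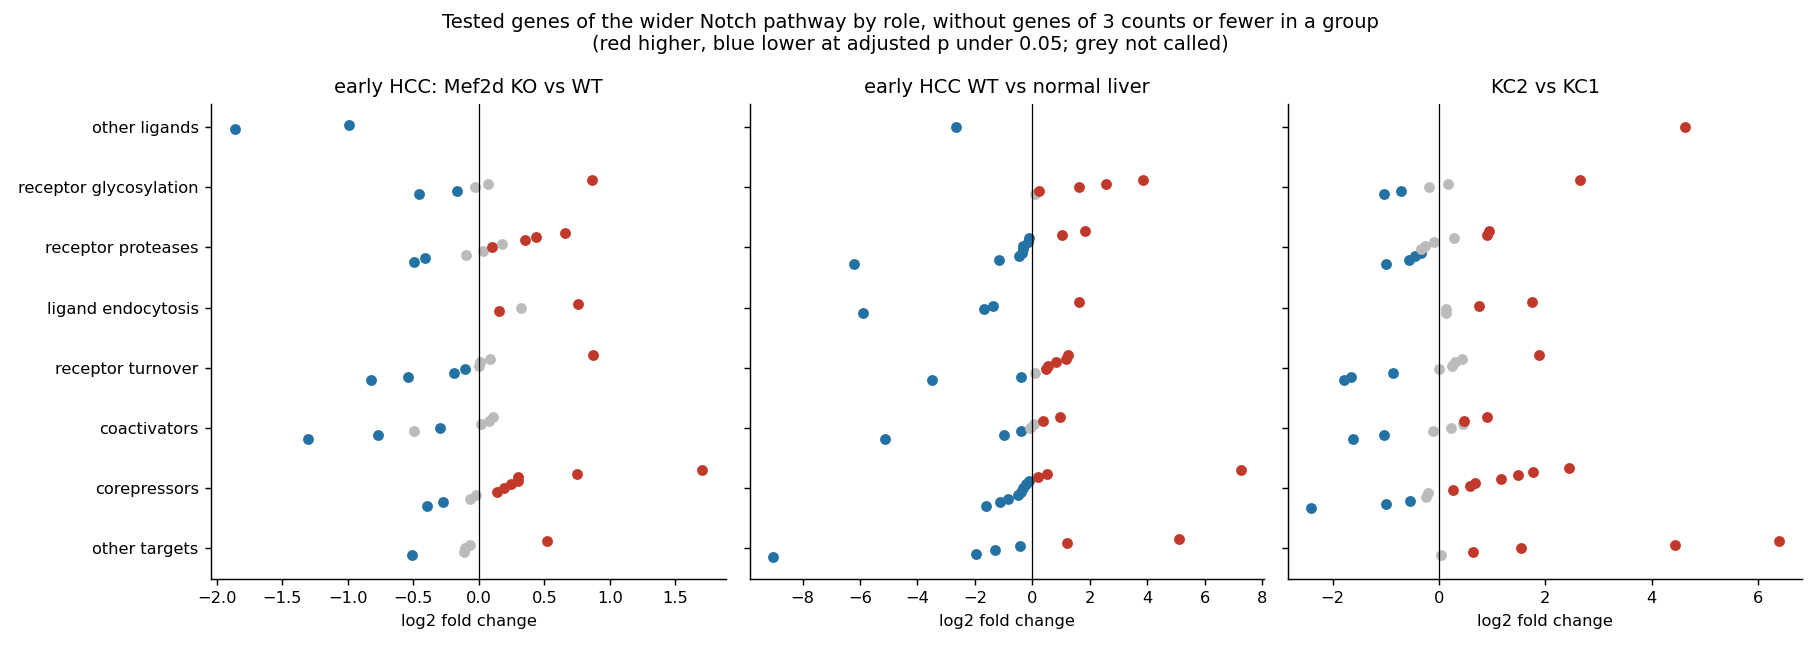
Each point is the log2 fold change of a tested gene of the 60-gene pathway list, by role, in the 3 comparisons, red where called higher, blue where called lower and grey where not called. Genes with 3 counts or fewer in a group are left out. In KC2 against KC1 the called points of the other targets lie to the right, with Nrarp at 6.40.

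The genes whose levels ran most like those of 3 chosen genes were found by Pearson correlation of log2(CPM + 1) over the 17 libraries, among 12849 genes with a mean of at least 1 CPM. These values are descriptions, since the libraries of a group share their cell type and the groups are far apart. For Notch1 the closest were Maml2, a Notch coactivator (r = 0.990), Hscb (0.989) and Enox2 (0.989). For Jag1 they were Rps12 (0.992), Rps4x (0.990) and Ahnak (0.989). For Hes1 they were Pnpla8 (0.975), Dync1i2 (0.974) and Vps36 (0.973).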

How the data were processed

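RNA was measured by poly(A)-selected stranded sequencing, per the labels' protocols. The authors deposited expected counts per gene, with FastQC, HISAT, RSEM and mm10 named in the submitters' processing notes without versions or roles. Annotation, gene filter and strand use: not given in the sources used here.

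After rounding to whole numbers, the groups of each comparison were fitted with edgeR 4.0.16 in R 4.3.3 (TMM, filterByExpr with a minimum count of 10, quasi-likelihood F test), with no other groups. Calls are Benjamini-Hochberg adjusted p under 0.05 over all tested genes. SE is the absolute log2 fold change divided by the square root of F. CPM used TMM factors over all 17 libraries. Levels per length used the longest APPRIS principal transcript of GENCODE M21. A group with 0 counts was set at 3 counts over the group, and 1 to 3 counts are given as a ratio with an exact 95% binomial interval. These cover counting error only. Alternatives were DESeq2 1.42.0, other scaling, no filter, a replicate block and each library left out. The fit was tested on simulated data.

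The 10 genes, the pathway and marker lists and the naming rule were chosen with earlier results of these data known. The rule named up to 4 called pathway genes in each direction with the largest fold changes, and the 3 genes most correlated with Notch1, Jag1 and Hes1.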

Additional observations from a re-analysis of the deposited data

Results flagged for a closer look

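In groups of 4 libraries, the highest or lowest library was compared with the spread of the others by Dixon's ratio, over 20 combinations of gene and group. Chance marks about 1 in 20 such groups where values are normally distributed, a rate that need not hold for counts near 0. Of the 20 combinations 3 were marked. Hey1 was at 15.7 CPM in KC1 replicate 2, above 6.19 to 7.47 CPM in the other KC1 libraries. Hes1 was at 2.99 CPM in KC1 replicate 4, below 4.18 to 4.37 CPM in the others, and without that library Hes1 was still called higher in KC2 (log2 fold change 0.99, edgeR adjusted p = 0.00896). Notch3 was at 0.249 CPM in KC1 replicate 4, from 3 counts, with 0 in the other KC1 libraries. With the others at 0 any count gives the largest possible ratio, so this mark carries no weight.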

How the results depend on the processing

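Of 302 fold changes of the 10 genes recomputed under an alternative, 290 kept their direction and their side of the threshold, 9 fell short of it, 2 newly passed it and 1 turned. The one that turned was Notch2 in KC2 against KC1, never called, at -0.047 without KC2 replicate 2 (range with each library left out -0.047 to 0.27). The number of the 10 genes lower in KC2 was 0 on library totals alone and 0 to 1 with a library left out, since it rests on Hey1. Pathway genes lower in KC2 numbered 9 on library totals alone. The cause was not tested. Whether replicate numbers pair the libraries could not be decided from 3 or 4 libraries per group. Correlations of same-numbered libraries were -0.02, 0.05 and 0.09 for KO with WT and -0.13, -0.04 and -0.07 for WT with normal liver. For KC2 with KC1 they were 0.00 to 0.05, or -0.03. Differently numbered KO and WT libraries ran from -0.13 to 0.08. With the replicate block, 4 genes rose and 4 fell in each early HCC comparison and 6 rose and 1 fell in KC2, and calls over all genes numbered 7962, 10911 and 7287 against 7800, 11069 and 7638. Other alternatives kept the all-gene counts within 1.5 times. On library totals alone 27 of 50 group means moved by more than 1 SD, by at most 1.31-fold. Exon union length, an alternative chosen after seeing the data, moved 17 shares by more than 1 SD. Adjusted p over the alternatives ran from 0.0111 to 0.120 for Dll4 in KO, 0.0161 to 0.488 for Notch2 in WT against normal liver, 0.00109 to 0.0517 for Rbpj and 0.0114 to 0.110 for Hey1 in KC2. Depth limits Hey1 and Dll4 in early HCC and normal liver cells and Notch3 and Jag2 in Kupffer cells.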
